A study of Homo sapiens with 6 samples.

Results

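The genes described here are 5 Toll-like receptors (TLR1, TLR2, TLR4, TLR5 and TLR6), the adaptors MYD88 and TICAM1, and the kinases IRAK1, IRAK2 and IRAK4. They were chosen by name, with earlier results of these data known. All 10 matched 1 gene each among the 58735 genes of the expression table. RNA came from HOK-16B, a human line of immortalized keratinocytes from oral epithelium. In all libraries the cells were stimulated to an inflammatory state. Cannabidiol (CBD), a cannabis compound that does not intoxicate, had been given beforehand to the cells of 3 libraries, and vehicle alone to those of the other 3. Stimulus, dose and time are not named in the labels, and unstimulated cells were not analysed here. Every value therefore compares CBD with vehicle in stimulated cells of 1 line, and the p-values reflect no more than the spread among these libraries, since nothing says that they came from separate cultures.

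Toll-like receptors are membrane proteins that recognise microbial products. TLR2 pairs with TLR1 or TLR6 to bind bacterial lipopeptides, TLR4 recognises lipopolysaccharide, and TLR5 recognises flagellin. Most of them signal through the adaptor MyD88, which assembles IRAK4 with IRAK1 or IRAK2 and leads to TRAF6, to the TAK1 and IKK kinases and to NF-kB. TICAM1 encodes TRIF, the adaptor of TLR3 and of internalised TLR4, which leads to TBK1 and IRF3. The interleukin-1 receptor class uses the same MyD88 and IRAK chain, so these genes also serve cytokine signalling in epithelia.

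All 10 keratinocyte markers examined were expressed, with a summed level of 10200 to 12000 FPKM with vehicle and 12500 to 13100 with CBD (FPKM is fragments per kilobase of gene length, scaled to library depth). Of 10 leukocyte markers, CSF1R alone reached a mean of 1 FPKM, and CD3E, AIF1 and TYROBP were at 0 in all libraries. The leukocyte list summed to 1.52 to 1.95 FPKM with vehicle and 2.19 to 2.44 with CBD. Fibroblast markers summed to 6.94 to 7.7 and 8.94 to 8.99 FPKM, most of it from COL1A1, while PDGFRA was at 0. Endothelial markers summed to at most 0.159 FPKM. Melanocyte markers summed to 1.04 to 1.58 FPKM with vehicle and 1.55 to 1.67 with CBD, with TYR at 0. Most of that sum came from PMEL (means of 0.928 and 1.15 FPKM) and MLANA (0.28 and 0.383). The keratinocyte, leukocyte and fibroblast sums were higher with CBD, without overlap between groups. Whether these differences bear on the genes below was not tested. Libraries held 18213784 to 22158614 fragments counted in genes. The groups also differed in base composition. Averaged over fragments, the GC content of the transcripts was 49.6% to 50.3% in the vehicle libraries and 50.7% to 50.8% in the CBD libraries, without overlap.

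The sequences of the genes matter here in 2 ways, through stretches shared between genes and through base composition. TLR1 and TLR6 lie on the same strand of chromosome 4, the annotated span of TLR6 inside that of TLR1. They were shown first because a fragment can match both. Their coding sequences, 2358 and 2388 bases long, were 78.5% identical over 2338 aligned bases, against 66.1% for TLR1 and TLR2, and they shared an unbroken identical run of 218 bases. The windows below (GENCODE 29 transcripts, GRCh38, minus strand, 5′ to 3′) hold the last 60 bases of that run and the 60 bases after it. The 1 mismatch is in capitals.
TLR1 (chr4:38797176-38797295): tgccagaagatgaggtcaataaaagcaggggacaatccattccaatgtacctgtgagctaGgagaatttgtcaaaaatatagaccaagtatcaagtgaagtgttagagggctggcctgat
TLR6 (chr4:38827803-38827922): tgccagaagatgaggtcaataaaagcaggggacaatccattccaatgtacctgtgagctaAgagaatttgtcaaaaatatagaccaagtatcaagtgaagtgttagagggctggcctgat

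Of all stretches of 100 coding bases in TLR1, 5.3% were found unchanged in TLR6, and 5.2% the other way round. The annotated exons of the pair also share 57 bases on the same strand. How fragments from these places were assigned is not given in the sources used here, so the TLR1 and TLR6 levels are uncertain to that extent.

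Base composition is shown for 4 genes of contrasting GC content. Each line is a coding stretch of 120 bases within 1 exon, the one nearest in GC content to the gene's transcripts as a whole, with G and C in capitals (GENCODE 29, GRCh38, 5′ to 3′).
TLR2 (chr4:153703117-153703236, plus strand): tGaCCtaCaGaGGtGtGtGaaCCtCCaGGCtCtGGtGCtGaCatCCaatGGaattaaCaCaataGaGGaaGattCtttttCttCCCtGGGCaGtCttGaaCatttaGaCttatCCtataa
IRAK4 (chr12:43771230-43771349, plus strand): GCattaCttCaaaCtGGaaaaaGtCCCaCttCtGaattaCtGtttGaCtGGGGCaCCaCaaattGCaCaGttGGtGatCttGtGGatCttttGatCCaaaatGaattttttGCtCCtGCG
TICAM1 (chr19:4818169-4818288, minus strand): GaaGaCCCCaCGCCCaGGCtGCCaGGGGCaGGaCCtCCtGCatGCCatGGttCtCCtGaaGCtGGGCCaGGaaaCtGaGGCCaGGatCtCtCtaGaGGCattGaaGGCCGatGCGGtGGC
IRAK1 (chrX:154018668-154018787, minus strand): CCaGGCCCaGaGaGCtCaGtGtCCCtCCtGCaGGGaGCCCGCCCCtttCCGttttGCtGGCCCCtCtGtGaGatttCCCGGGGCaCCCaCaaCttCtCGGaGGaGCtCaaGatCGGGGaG

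The TLR2 and IRAK4 stretches hold 51 and 49 G or C bases of 120, and those of TICAM1 and IRAK1 hold 76 and 77. Over all their transcripts the GC content was 42.8% for TLR2, 40.7% for IRAK4, 63.2% for TICAM1 and 63.8% for IRAK1. The other members had 39.3% (TLR1), 40.5% (TLR4 and TLR6), 46.2% (TLR5), 51.9% (IRAK2) and 54.5% (MYD88).

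The levels, per length in FPKM, spanned a wide range, and IRAK1 and both adaptor genes lay above all 5 receptors. With vehicle the order was IRAK1, MYD88, TICAM1, TLR2, IRAK4, IRAK2, TLR6, TLR1, TLR5 and TLR4, and the ranges of neighbours did not overlap, with 3 libraries each. With CBD the order of means was the same, and MYD88 and TICAM1 were the only neighbours whose ranges overlapped. The smallest level for which a gene was tested was a mean of 1 FPKM over all 6 libraries. TLR2, MYD88, TICAM1, IRAK1, IRAK2 and IRAK4 passed it, and TLR1, TLR4, TLR5 and TLR6 did not.

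**Figure D1:**
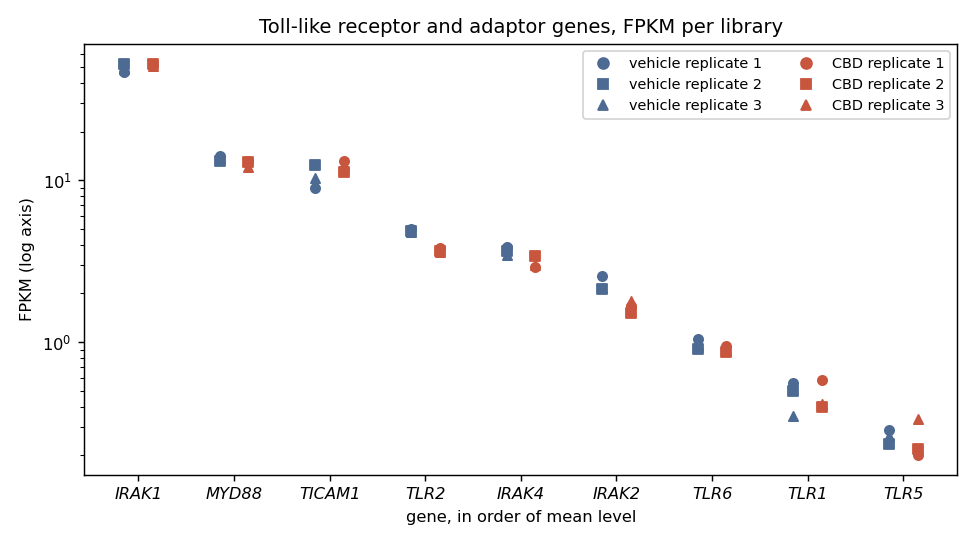
FPKM of 9 of the 10 genes in each library, on a log axis, with vehicle libraries in blue and CBD libraries in red and 1 marker shape per replicate number. IRAK1 stood highest, at 46.7 to 52.7 FPKM, and TLR5 lowest, at 0.2 to 0.337 FPKM, while TLR4, with 0 to 3 fragments per library, is not drawn.

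Of the 6 genes tested, 0 were called higher and 0 lower with CBD by limma at a Benjamini-Hochberg adjusted p under 0.05, where 0.352% of the 12517 genes tested were called. At an unadjusted p under 0.05, 3 were lower and 0 higher, while 31.4% of all tested genes lay under that value, 16% lower and 15.4% higher. By limma-voom on fragments recovered from the FPKM values, 1 of the 6, TLR2, was called lower, where 5.42% of tested genes were called lower and 8.07% higher. In 3 genes, TLR2, IRAK2 and IRAK4, all CBD libraries lay below all vehicle libraries, which was so for 21.9% of all tested genes, and 40.7% were without overlap in either direction.

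TLR2, the shared partner of the lipopeptide-sensing pairs, was the most abundant of the receptors. It lies on chromosome 4 (153684070 to 153705702, from GENCODE 29 on GRCh38, as for every gene below). Its levels were 5.03, 4.83 and 4.8 FPKM in vehicle replicates 1 to 3 and 3.81, 3.65 and 3.6 FPKM in CBD replicates 1 to 3. Every CBD library lay below every vehicle library, and the values within a group lay close together. The means were 4.89 ± 0.128 FPKM with vehicle and 3.69 ± 0.107 with CBD (SD, n = 3), so the CBD mean was 0.755 of the vehicle mean. On the log2(FPKM + 1) scale, where changes of low genes come out too small, the difference was -0.33 ± 0.05 (SE; 95% interval -0.45 to -0.21), with a limma adjusted p of 0.0538, just short of the threshold. The exact permutation p was 0.1, the smallest that 3 libraries against 3 allow. These values rested on 388 to 600 fragments per library. On those fragments limma-voom gave -0.39 ± 0.08 and an adjusted p of 0.0164, which passed. With 1 library left out at a time, limma called TLR2 lower in 1 of 6 fits, the one without vehicle replicate 2 (adjusted p = 0.0249), in which 1084 of the 12517 genes were called lower. In the other 5 fits its adjusted p was 0.0549 to 0.209.

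TLR6, a partner of TLR2 on chromosome 4 (38823715 to 38856817), stood just under the level tested. It had 1.04, 0.906 and 0.954 FPKM with vehicle and 0.945, 0.866 and 0.883 FPKM with CBD, from 110 to 143 fragments per library. The groups overlapped (exact permutation p = 0.2). TLR1, the other partner (38790677 to 38856817), had 0.56, 0.502 and 0.348 FPKM with vehicle and 0.582, 0.4 and 0.417 FPKM with CBD, and the groups overlapped fully, with means of 0.470 ± 0.109 and 0.466 ± 0.101 FPKM (SD, n = 3). With genes of at least 10 fragments on average included, limma-voom gave -0.10 ± 0.14 for TLR6 (95% interval -0.40 to 0.21) and -0.01 ± 0.26 for TLR1 (-0.56 to 0.55). In that fit 4.42% of genes were called lower and 6.03% higher, and TLR2 was the only member called (adjusted p = 0.0151 by limma-voom).

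The ratio of TLR2 to TLR6, per length, was 4.85, 5.33 and 5.03 with vehicle and 4.03, 4.22 and 4.08 with CBD. All 3 CBD ratios lay below the vehicle ratios, with means of 5.07 ± 0.242 and 4.11 ± 0.0955 (SD, n = 3), and the exact permutation p was 0.1, again the smallest possible. The GC contents of the pair, 42.8% and 40.5%, were close. The ratio of TLR2 to TLR1 overlapped between groups, at 8.99, 9.61 and 13.8 with vehicle and 6.54, 9.13 and 8.65 with CBD (exact permutation p = 0.2). Both ratios hold the TLR2 values given above, so they are no separate support for a TLR2 difference. With 3 libraries against 3 the exact permutation p cannot fall below 0.1. None of the 8 ratios computed could therefore pass, whatever its values. The share of all gene pairs without overlap was not counted.

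TLR5, the flagellin receptor on chromosome 1 (223109406 to 223143282), had 0.287, 0.235 and 0.263 FPKM with vehicle and 0.2, 0.217 and 0.337 FPKM with CBD. Its groups overlapped, the lowest and the highest value both being CBD libraries (exact permutation p = 0.9). It rested on 37 to 54 fragments per library. TLR4, the lipopolysaccharide receptor on chromosome 9 (117704175 to 117724730), had 1, 0 and 2 fragments with vehicle and 3, 0 and 0 with CBD. Its highest level, 0.00948 FPKM, was no higher than the level of 3 fragments, which was 0.00949 to 0.0115 FPKM for this gene, a limit that covers counting error only. A difference in TLR4 was therefore not detectable at this depth. Its co-receptor genes were named after their values were seen. LY96, which encodes MD-2, had 0 to 3 fragments in each library, while CD14, which also serves TLR2, stood at 2.49 ± 0.496 FPKM with vehicle and 2.54 ± 0.480 with CBD (SD, n = 3; limma adjusted p = 0.91).

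MYD88, the adaptor of all receptors above, lies on chromosome 3 (38138478 to 38143022). Its levels were 14.2, 13.2 and 13.7 FPKM with vehicle and 13.2, 12.9 and 12.1 FPKM with CBD. The groups met at 13.2 FPKM, with means of 13.7 ± 0.530 and 12.8 ± 0.567 FPKM (SD, n = 3). The log2 difference was -0.09 ± 0.05 (SE; 95% interval -0.22 to 0.03; limma adjusted p = 0.263).

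TICAM1, the TRIF adaptor gene on chromosome 19 (4815932 to 4831704), had 8.91, 12.5 and 10.3 FPKM with vehicle and 13.1, 11.2 and 12.4 FPKM with CBD. Vehicle replicate 1 was lowest and vehicle replicate 2 lay inside the CBD range, so the groups overlapped. The difference was 0.20 ± 0.12 (SE; 95% interval -0.07 to 0.48; limma adjusted p = 0.269). Without vehicle replicate 1 it was 0.10, and without vehicle replicate 2 it was 0.32, neither past the threshold. The ratio of MYD88 to TICAM1 was 1.6, 1.05 and 1.33 with vehicle and 1.01, 1.16 and 0.983 with CBD, overlapping between groups (exact permutation p = 0.2).

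IRAK4 encodes the kinase that MyD88 recruits first and lies on chromosome 12 (43758944 to 43789543). It had 3.86, 3.67 and 3.45 FPKM with vehicle and 2.93, 3.43 and 3.01 FPKM with CBD. The groups did not overlap, although CBD replicate 2 and vehicle replicate 3 differed by little. The log2 difference was -0.18 ± 0.07 (SE; 95% interval -0.34 to -0.01; limma adjusted p = 0.144).

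IRAK2, which acts with IRAK4 in sustained signalling and is itself induced by NF-kB, lies on chromosome 3 (10164865 to 10243743). Its levels were 2.58, 2.12 and 2.15 FPKM with vehicle and 1.67, 1.51 and 1.8 FPKM with CBD. All CBD libraries lay below all vehicle libraries, and vehicle replicate 1 was the highest. The CBD mean was 0.728 of the vehicle mean, the lowest ratio among the 6 tested genes. The log2 difference was -0.30 ± 0.09 (SE; 95% interval -0.51 to -0.10; limma adjusted p = 0.0855). From 122 to 205 fragments per library, limma-voom gave -0.45 ± 0.14 (adjusted p = 0.056). Neither test passed.

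IRAK1, the most abundant of the 10 genes, lies on the X chromosome (154010500 to 154019980). It had 46.7, 52.7 and 48.9 FPKM with vehicle and 52.1, 52.2 and 51.2 FPKM with CBD. The CBD values fell inside the vehicle range, and the difference was 0.07 ± 0.06 (SE; 95% interval -0.06 to 0.20; limma adjusted p = 0.408). Without vehicle replicate 1 it was 0.03, and without vehicle replicate 2 it was 0.12. The ratio of IRAK1 to IRAK4 was 12.1, 14.4 and 14.2 with vehicle and 17.8, 15.2 and 17.0 with CBD, without overlap (exact permutation p = 0.1). That pair also differed widely in GC content, at 63.8% and 40.7%. With the GC trend removed, as described below, the log2 difference was -0.17 for IRAK1 and -0.04 for IRAK4. IRAK1 was then no longer raised against IRAK4.

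**Figure D2:**
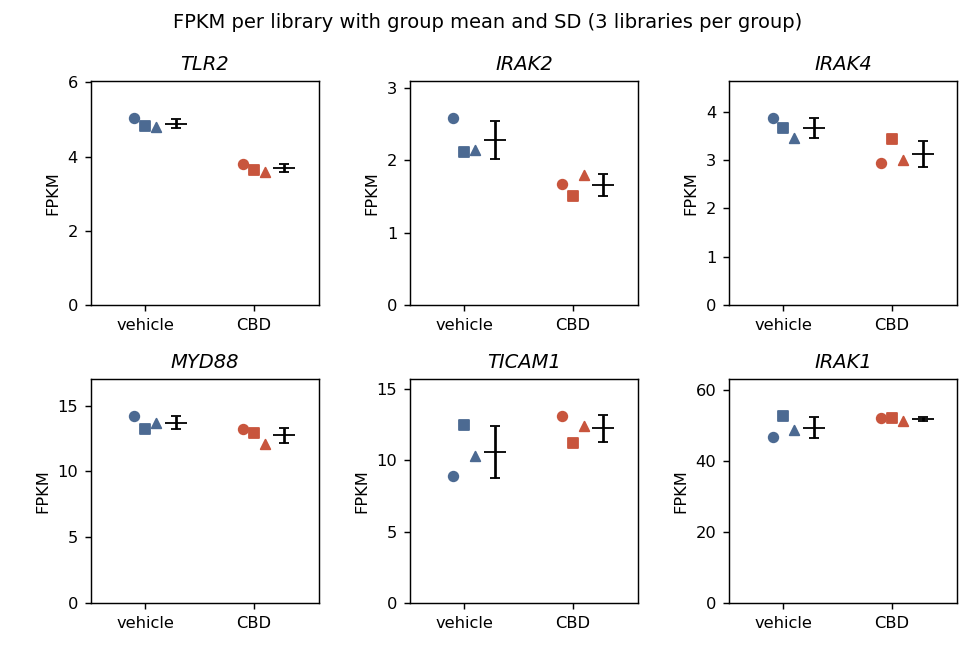
FPKM of the 6 tested genes in each library (blue vehicle, red CBD, 1 marker per replicate number), with the mean and SD of each group in black and axes that start at 0. The CBD points of TLR2, IRAK2 and IRAK4 lie below all vehicle points, while those of MYD88, TICAM1 and IRAK1 overlap them.

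Across all tested genes the difference was greater at higher GC content. Over 12510 genes with a GC value the Spearman correlation was 0.674, a description across genes that share the same 6 libraries. The median difference went from -0.17 in the decile of lowest GC content to 0.24 in that of highest GC content. The members followed this order in part. IRAK4 lay close to the median of its decile (-0.18 against -0.14), as did TICAM1 (0.20 against 0.24). TLR2 lay below its decile's median (-0.33 against -0.11), with 4.2% of that decile's genes lower still. IRAK2 lay farther below (-0.30 against 0.05), with 1.7% lower, and MYD88 (-0.09 against 0.05) and IRAK1 (0.07 against 0.24) had 13.3% and 12.2% of their deciles below them.

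**Figure D3:**
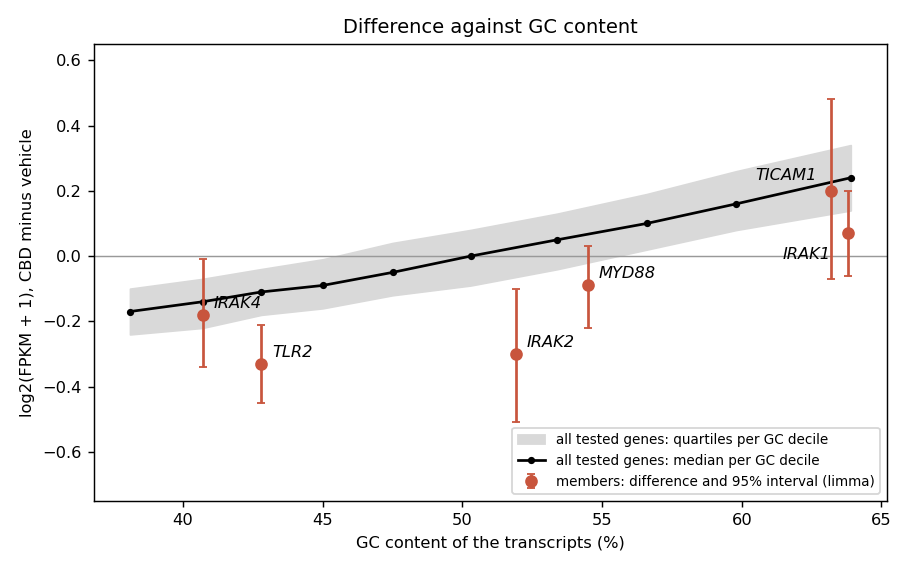
Difference in log2(FPKM + 1), CBD minus vehicle, against transcript GC content for the 6 tested genes (red, with 95% intervals) over the median and quartiles of all tested genes in each GC decile (black line and grey band). TLR2 (-0.33), IRAK2 (-0.30), MYD88 (-0.09) and IRAK1 (0.07) lie below the grey band, while IRAK4 (-0.18) and TICAM1 (0.20) lie on it.

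When a smooth GC trend was removed from each library, all 6 differences lay below 0, as did 6486 of the 12510 genes in that fit. Those of IRAK4 (-0.04 ± 0.07) and TICAM1 (-0.03 ± 0.08) were smaller than their SE. TLR2 stood at -0.22 ± 0.04 (SE; limma adjusted p = 0.0931), with log2 values of 2.48, 2.54 and 2.49 with vehicle and 2.32, 2.28 and 2.25 with CBD, still without overlap. IRAK2 stood at -0.33 ± 0.09 (adjusted p = 0.153 by limma), again without overlap. The difference of IRAK4 shrank to -0.04 and its groups overlapped. TICAM1 went from 0.20 to -0.03, and IRAK1 from 0.07 to -0.17 ± 0.04 (adjusted p = 0.098 by limma), so both directions turned. IRAK1 then had log2 values of 5.81, 5.74 and 5.77 with vehicle against 5.61, 5.61 and 5.59 with CBD. MYD88 stood at -0.17 ± 0.06 (adjusted p = 0.217 by limma), and without vehicle replicate 1 at -0.11 (adjusted p = 0.278 by limma), where its unadjusted p was no longer under 0.05. By limma 0 of the 6 were called after this step, where 0.0639% of tested genes were called, 0.032% in each direction. At an unadjusted p under 0.05, 4 were lower and 0 higher, against 10.1% and 8.22% of tested genes, 18.3% in all. In those 4 genes (TLR2, IRAK2, MYD88 and IRAK1) the CBD values lay below the vehicle values without overlap, where 14.4% of all tested genes did so and 26% were without overlap in either direction. Because GC content moved with the groups, a GC-dependent yield of the libraries and an effect of CBD on GC-rich or GC-poor genes cannot be told apart here.

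**Figure D4:**
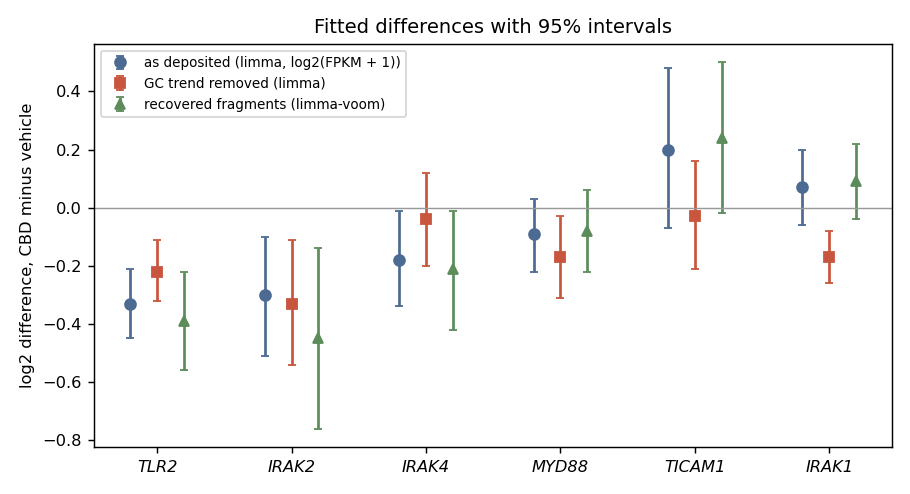
Fitted log2 differences, CBD minus vehicle, with 95% intervals for the 6 tested genes, as deposited (blue circles), with the GC trend removed (red squares) and by limma-voom on recovered fragments (green triangles). TLR2, IRAK2, IRAK4 and MYD88 lie below 0 in all 3 fits, and TICAM1 and IRAK1 move from above to below 0 when the GC trend is removed.

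The other genes of the pathway were taken as a list of 55, of which 40 reached the level tested. In each role below, up to 3 tested genes with the smallest limma adjusted p are named, unless said otherwise. They need not be typical of their role. By limma 0 were called higher and 0 lower, against 0.256% and 0.0959% of all tested genes. At an unadjusted p under 0.05, 8 were higher and 10 lower (45.0% of the list against 31.4% of all tested genes). By limma-voom 2 were called higher and 3 lower, against 8.07% and 5.42% of all tested genes. The median difference was -0.01, the same as over all tested genes (-0.01). In 11 genes (27.5%, against 18.7% of all tested genes) the CBD values lay above all vehicle values, and in 13 (32.5%, against 21.9%) below them. The 11 higher genes had a GC content of 55.0% to 64.7% and the 13 lower genes one of 37.6% to 44.3%, so the 2 sets did not meet. With the GC trend removed, CNPY3 and TIRAP of the 11 and HSP90B1 and IL1RAP of the 13 were still without overlap in the same direction. MAP3K8 and IL1R1 (higher) and TRAF3 (lower), named after their values were seen, were without overlap only then, which made 4 higher and 3 lower (10% and 7.5% of the list, against 11.7% and 14.4% of all tested genes). UNC93B1 and SIGIRR, which limma-voom called higher, then stood at 0.00 and 0.08.

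Among the other receptors TLR3, the sensor of double-stranded RNA that signals through TRIF, was the only one tested. It had 4.52, 3.83 and 3.77 FPKM with vehicle and 3.52, 3.86 and 3.58 with CBD, overlapping between groups (limma adjusted p = 0.324). The ratio of TLR2 to TLR3 was 1.11, 1.26 and 1.27 with vehicle and 1.08, 0.947 and 1.01 with CBD, without overlap (exact permutation p = 0.1). It too holds the TLR2 values given above and is no separate support. TLR8, TLR9 and TLR10 (named, like TLR7, after their values were seen) were at 0 in all libraries, although 86.3% of the exon bases of TLR9 also belong to another gene on its strand, and the 5 fragments of TLR7 all came from CBD replicate 2.

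Of the genes for ligand handling and chaperones, 5 of 9 were tested. Limma called 0 of them, where 0.352% of all tested genes were called. By limma-voom 1 was called higher and 1 lower, against 8.07% and 5.42% of all tested genes. UNC93B1, which escorts the endosomal receptors, had 21.9 ± 0.958 FPKM with vehicle and 26.1 ± 0.689 with CBD (SD, n = 3; adjusted p = 0.0605 by limma and 0.0212 by limma-voom). CNPY3, a receptor chaperone, had 22 ± 2.58 and 26.1 ± 0.149 FPKM (limma adjusted p = 0.109). HSP90B1, the endoplasmic reticulum chaperone gp96 that works with it, had 137 ± 11.2 and 116 ± 2.78 FPKM (adjusted p = 0.0883 by limma and 0.0423 by limma-voom). With the GC trend removed UNC93B1 stood at 0.00, CNPY3 at 0.08 and HSP90B1 at -0.11. TIRAP, which bridges TLR2 or TLR4 to MyD88, had 0.970 ± 0.118 and 1.30 ± 0.0760 FPKM (limma adjusted p = 0.147). An antisense gene shares 10% of the exon bases of TIRAP, and the strand setting of the counts is not given in the sources used here.

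Below the adaptors, all 11 genes of kinases and their binding or regulatory subunits were tested. Limma and limma-voom called 0 of them, against 0.352% and 13.5% of all tested genes. At an unadjusted p under 0.05 by limma, 2 were higher and 5 lower, where 15.4% and 16% of all tested genes were. With the GC trend removed 0 of the 11 lay under that value, against 18.3% of all tested genes. CHUK, which encodes IKK alpha, had 6.87 ± 0.432 and 5.74 ± 0.326 FPKM (SD, n = 3; limma adjusted p = 0.0844). MAP3K7, the gene of TAK1, had 11 ± 0.741 and 9.74 ± 0.216 FPKM, and its partner TAB1 10.5 ± 0.686 and 11.8 ± 0.306 FPKM. With the GC trend removed these 3 stood at -0.06, 0.01 and -0.01. Of the ubiquitin factors, the E2 enzyme gene UBE2N had 14.6 ± 1.45 and 12.4 ± 0.653 FPKM, and PELI3, an E3 ligase that acts on the IRAK kinases, 5.19 ± 0.370 and 6.11 ± 0.0501 FPKM. UBE2V1, the cofactor of UBE2N, had 1.81 ± 0.191 and 1.37 ± 0.160 FPKM. None of UBE2N, PELI3 and UBE2V1 was called by limma (adjusted p = 0.118, 0.0866 and 0.125). With the GC trend removed their differences were -0.08, -0.02 and -0.16, so the direction of PELI3 turned. Of the exon bases of UBE2N 39.5% overlap NUDT4 on the other strand, and of those of UBE2V1 42.9% overlap a readthrough gene, so their levels are uncertain.

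Of the 7 inhibitors of the pathway, all tested, limma called 0, where 0.352% of all tested genes were called. By limma-voom 1 was called higher and 1 lower, against 8.07% and 5.42% of all tested genes. With the GC trend removed 0 lay under an unadjusted p of 0.05 by limma, against 18.3% of all tested genes. SIGIRR, an orphan receptor that restrains interleukin-1 and Toll-like receptors, had 2.3, 2.71 and 2.41 FPKM with vehicle and 3.2, 3.39 and 3.55 FPKM with CBD. All CBD values lay higher, and the difference was 0.34 ± 0.07 (SE; adjusted p = 0.0608 by limma and 0.03 by limma-voom). IRAK3, which encodes IRAK-M, an inhibitory member of the IRAK family, had 2.74, 2.51 and 2.79 FPKM with vehicle and 2.03, 2.29 and 2.15 FPKM with CBD, all lower (adjusted p = 0.0947 by limma and 0.0427 by limma-voom). TOLLIP, an adaptor that holds IRAK1 inactive, had 11.2 ± 0.630 and 12.7 ± 0.170 FPKM (SD, n = 3; limma adjusted p = 0.0953). With the GC trend removed SIGIRR stood at 0.08, IRAK3 at -0.10 and TOLLIP at 0.00. The ratio of IRAK2 to its relative IRAK3 was 0.939, 0.844 and 0.77 with vehicle and 0.823, 0.661 and 0.835 with CBD, overlapping between groups (exact permutation p = 0.4).

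At the end of the pathway, IRF3, RELA and IRF5 encode transcription factors. IRF3 had 17.2 ± 1.69 and 19.3 ± 0.718 FPKM, RELA 20.4 ± 1.41 and 22.2 ± 0.967, and IRF5 1.71 ± 0.0907 and 2.03 ± 0.0767 (SD, n = 3), with adjusted p from 0.166 to 0.227 by limma. With the GC trend removed the differences of IRF3, RELA and IRF5 were -0.02, -0.05 and 0.00, and all 5 transcription factor genes tested lay at or below 0. Over all genes in that fit, 6486 of 12510 lay below 0. IRF3 shares 19.3% of its exon bases with BCL2L12 on the other strand. Among interleukin-1 class receptors, which feed into MyD88 as well, the shared subunit IL1RAP had 5.74, 4.51 and 4.95 FPKM with vehicle and 3.94, 3.73 and 3.91 FPKM with CBD. All CBD values lay lower (difference -0.32 ± 0.08, SE; adjusted p = 0.0747 by limma and 0.026 by limma-voom), and with the GC trend removed the difference was -0.17. IL1R1, the interleukin-1 receptor itself, stood at 4.98 ± 0.174 and 5.05 ± 0.156 FPKM (limma adjusted p = 0.843), and IL1RL2, the receptor of interleukin-36, at 2.93 ± 0.303 and 2.53 ± 0.352 FPKM (0.293).

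**Figure D5:**
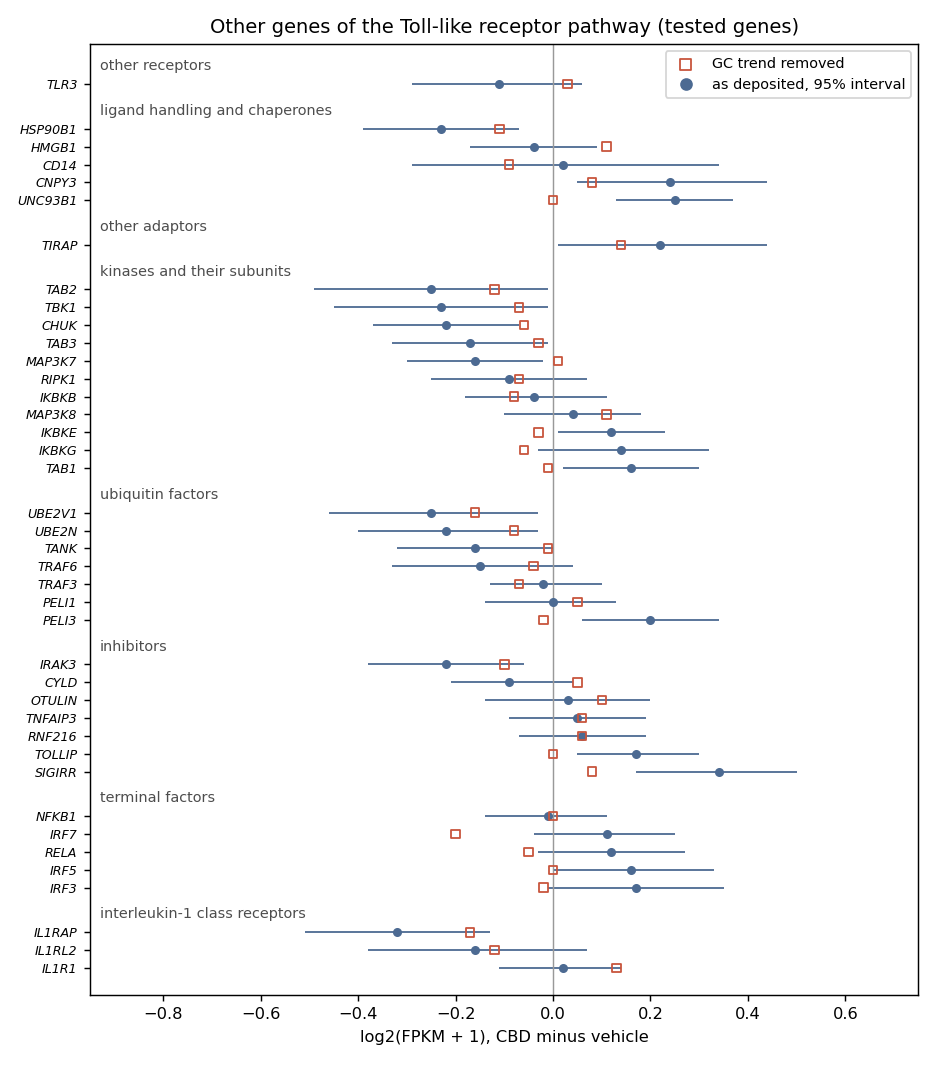
Differences in log2(FPKM + 1), CBD minus vehicle, of the 40 tested genes of the pathway list by role, as deposited with 95% intervals (filled circles) and with the GC trend removed (open squares). Differences ran from -0.32 (IL1RAP) to 0.34 (SIGIRR). With the GC trend removed 26 of the 40 lay below 0, against 6486 of the 12510 genes in that fit. The median of the 40 was then -0.02.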

How the data were processed

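The 6 libraries were made from total RNA and read from both ends, as the labels' protocols say. The FPKM values were deposited by the authors as 1 table with 1 column per library, per the file headers. HISAT2 2.0.5 and featureCounts 1.5.0-p3 are listed, per the submitters' processing notes. The genome build, annotation, strand setting and filters are not given in the sources used here. Groups and replicate numbers came from the titles. A free-text label numbers the line differently in each sample, and 1 line was taken for all. FPKM is relative to each library's total, so a change in abundant genes shifts all others, and it holds no correction for GC-dependent yield.

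All identifiers were found in GENCODE 29. Multiplying FPKM by exon-union length and by a factor for each library returned whole numbers of fragments for 100% of values (tolerance 0.01), and a level of 3 fragments was 0.126 to 0.153 FPKM for a gene of 1 kb. The fit used limma 3.58.1 (R 4.3.3) on log2(FPKM + 1), group as the only term, an intensity trend, only genes whose mean FPKM reached 1, two-sided, with Benjamini-Hochberg adjustment over 12517 genes and a threshold of 0.05. Exact permutation tests (two-sided) enumerated all 20 splits. The GC trend was a loess curve (span 0.3) per library. limma-voom used trimmed-mean scaling. Another 15 settings were tried, and 2 more were added after the data had been seen (limma-voom with a mean of at least 10 fragments, and the GC trend removed without vehicle replicate 1). The members, the list and the tests were chosen with earlier results of these data known. The rule named all 10 members and, for each role of the list, up to 3 tested genes with the smallest adjusted p. The pipeline was tested on simulated data, where limma called 84% of 100 genes changed 1.5-fold and 98% of 100 changed 2-fold. Of its 195 calls 13 were false. Those data held no GC difference between groups, so these rates do not carry over to the libraries here. Python 3.11.15 with pandas 2.3.3 and biopython 1.88 was used.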

Additional observations from a re-analysis of the deposited data

How the results depend on the processing

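Whether single genes passed depended on settings that moved the calls over all genes widely, and GC content moved with the groups. Over all genes 32 were called higher and 12 lower. The counts were 0 and 0 without a filter on low values, 427 and 305 at a mean FPKM of at least 5, 2 and 2 with equal FPKM sums, 1010 and 678 by limma-voom (968 and 710 with a mean of at least 10 fragments), 0 and 1 with no intensity trend, 4 and 4 with the GC trend removed, and 0 and 0 with that trend removed and without vehicle replicate 1. With the replicate number as a block they were 0 and 0, and 0 of the 6 tested members were then called by limma (TLR2 adjusted p = 0.0907). Over genes, deviations from the group mean correlated at -0.003, 0.052 and 0.024 between same-numbered libraries, and at -0.052 to 0.028 between the others. Such small values show no clear pairing by number, but cannot tell whether libraries were paired by design. Leaving out 1 library gave 0 to 1267 higher and 0 to 1084 lower, the largest counts without vehicle replicate 2. Of the pathway list, 0 and 0 were called by limma, 1 higher at a mean FPKM of at least 5, 2 higher and 3 lower by either limma-voom fit, and 0 to 4 higher and 0 to 7 lower with 1 library left out, the most without vehicle replicate 2.

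TLR2 stayed below 0 under all 16 alternatives (-0.40 to -0.22, adjusted p 0.0151 to 0.209). It passed by limma-voom (-0.39, and -0.40 with the lower filter) and without vehicle replicate 2 (-0.34), the range over left-out libraries being -0.35 to -0.31. IRAK2 stayed below 0 under 16 (-0.46 to -0.24) without passing. MYD88 (-0.17 to -0.06) and IRAK4 (-0.23 to -0.04) also stayed below 0 without passing. With the GC trend removed the -0.04 of IRAK4 was smaller than its SE of 0.07. All settings reuse the same libraries, and the share of all genes that keep their direction was not counted. TICAM1 turned to -0.03 with the GC trend removed and to -0.07 when vehicle replicate 1 was also left out, and IRAK1 to -0.17 and -0.15. The cause was not tested.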
